A study of Mus musculus with 5 samples.

Results

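The data described here are hepatocytes from a pair of mouse liver libraries, both labelled WT, one with ApoE named in its label and one with no background named. The members are the cells that the authors call hepatocytes in the WT library of the ApoE liver table (4040 of its 4331 cells) and all 616 cells of the other liver table, every one of which the authors call a hepatocyte. Together they are 4656 of the 14878 cells of the series, and they were compared over the 17961 genes that both count tables list. Each side is 1 droplet library, in which every captured RNA molecule is marked near its 3′ end by a unique molecular identifier (UMI). There is therefore no replicate of either group and no test, and intervals in brackets are 95% and cover counting error only. The series also holds a liver library labelled DKO with ApoE, whose 3382 hepatocytes are given beside some results as one more liver library, and a pair of aorta libraries that were not used here. Neither WT label names an allele of Apoe, and none of them gives sex, age, diet or hour of collection. The protocol speaks of n = 3 mice without tying them to libraries. The background named in the label, the animal, the dissociation, the library and its processing cannot be told apart in this comparison. In what follows, WT ApoE and WT name the libraries.

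Hepatocytes make most plasma proteins, assemble and clear lipoproteins, and switch between storing and releasing glucose and fat as feeding, glucocorticoids, insulin and growth hormone dictate. Their genes are also zoned: those near the central vein of a lobule carry most of the drug-metabolizing cytochrome P450 enzymes, and those near the portal vein most of the gluconeogenic and urea cycle enzymes. Apoe encodes a ligand through which remnant lipoproteins are taken up by liver cells, and mice without it have high plasma cholesterol and are a standard model of atherosclerosis. The title of the series concerns liver epsins, which are endocytic adaptors.

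The WT ApoE cells held 8814388 UMIs, with a median of 1535 per cell, and the WT cells 1883798, with a median of 2771.5. Cells thinned to 1000 UMIs detected a median of 592 genes in WT ApoE and 588 in WT, and no cell barcode was shared. Mitochondrially encoded transcripts took a median of 3.00% of a cell's UMIs in WT ApoE and 0.694% in WT, where 421 of 616 cells (68.3%) lay under 2%, against 1173 of 4040 (29.0%) in WT ApoE. At least 5% was reached by 29.2% of WT ApoE cells and 28.4% of WT cells, so values within these classes of cells are given beside the main results. The hepatocyte label was borne out by its markers: Alb, the gene of serum albumin, stood at 44345 against 37179 CPM (WT ApoE first, here and below; CPM, counts per 1000000 UMIs of the shared genes), transthyretin (Ttr) at 11147 against 14727 CPM and Apoa1 at 5253 against 6290.1 CPM. WT cells also carried more RNA of macrophages. The summed level of 12 Kupffer cell and macrophage markers was 8.05 against 431 CPM, and that of 8 MHC class II and dendritic markers 5.22 against 365 CPM. At least 1 UMI of the first list was seen in 65 of 4040 cells (1.61%) and in 405 of 616 (65.7%). The part of these transcripts in the other results was not tested, but medians of the main groups are also given for the 3943 WT ApoE and 100 WT cells that had no UMI of either list. WT cells carried a mean of only 1.32 UMIs of the first list, so a cell with none may still hold macrophage RNA. Values in these cells therefore cannot show that a gene is free of it.

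Of 5209 genes with a mean level of at least 20 CPM over the pair of libraries, 949 (18.2%) were more than 1.5-fold higher in WT ApoE and 966 (18.5%) more than 1.5-fold lower, while 3294 lay between. The median log2 ratio of these genes was 0.04, and 67 genes were past 4-fold upward and 79 downward. Counts for the gene lists below are to be set against these shares of 18.2% and 18.5%. When each library was split into the authors' clusters of at least 25 cells (10 in WT ApoE and 6 in WT), 84 of the higher genes were above every WT cluster in every WT ApoE cluster, and 126 of the lower genes below. The smallest of these clusters held 44 and 29 cells, in which a gene near 20 CPM has few UMIs, so the criterion is strict for such genes. The split also moved with the mitochondrial class of the cells. Among cells under 2% it was 627 higher and 1091 lower, and among cells with at least 5% it was 1315 higher and 750 lower.

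**Figure D1:**
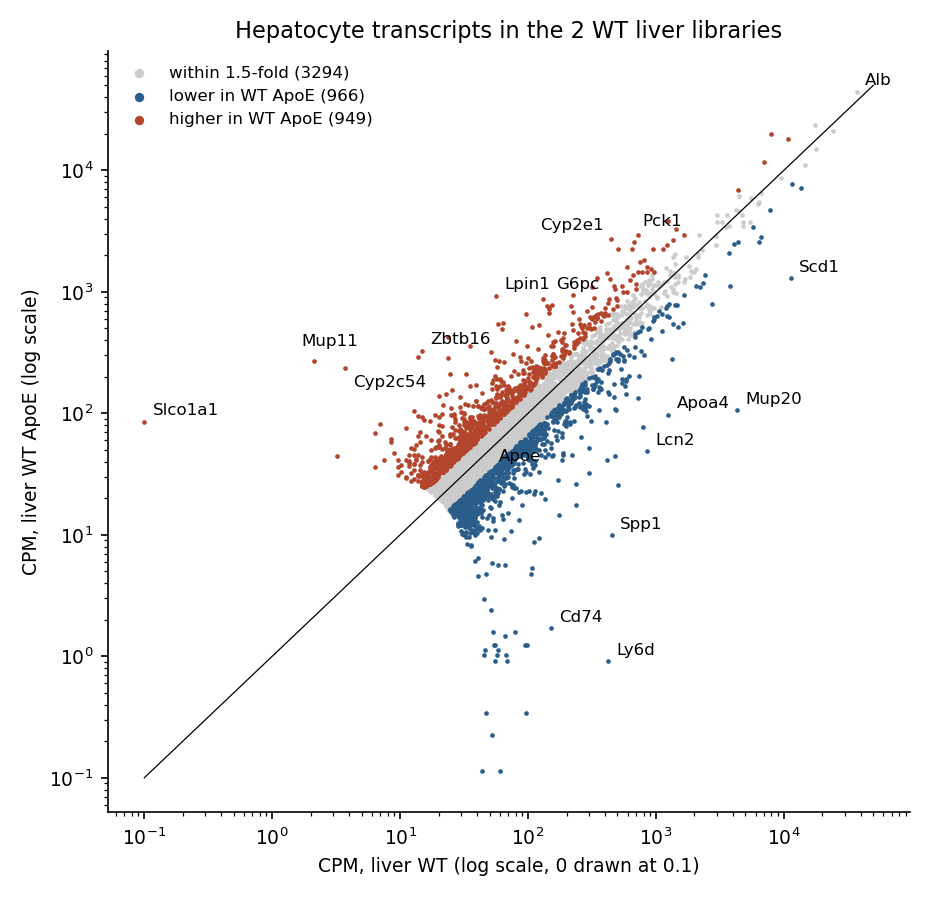
Level of each of the 5209 compared genes in hepatocytes of the WT library (horizontal) and the WT ApoE library (vertical), in CPM on log axes; the line marks equal levels. Red points are the 949 genes more than 1.5-fold higher in WT ApoE and blue points the 966 more than 1.5-fold lower; Slco1a1, with no UMI in WT, is drawn at the left edge.

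The genes that stood highest in WT ApoE were ranked by the interval bound nearest to no difference. Slco1a1, an organic anion uptake carrier of the sinusoidal membrane, had 752 UMIs (85.3 CPM) in WT ApoE and 0 in WT, which is at least 53.6-fold higher when 3 counts stand for the 0. Mup11, a major urinary protein gene, had 2396 against 4 UMIs, a ratio of 128 (49.9 to 470.1). Cyp2c54, a cytochrome P450 gene, had 2076 against 7 UMIs, a ratio of 63.4 (30.7 to 158). Zbtb16, a zinc finger repressor induced by glucocorticoids, had a level of 329 against 14.9 CPM, a ratio of 22.1 (15.3 to 33.3). The sulfotransferase genes Sult3a1 (291 against 13.8 CPM) and Sult2a8 (422 against 23.9 CPM) had ratios of 21.1 and 17.7. In the same top 15 stood Lpin1, Fkbp5, Cyp2c37, Cyp2c50, Cyp3a41b and Cyp3a44, which are described with their groups below, and the predicted gene Gm43305 (44.8 against 3.19 CPM). The remaining members were Txnip, whose product binds thioredoxin and restrains glucose uptake (539 against 58.4 CPM, ratio 9.23, interval 7.64 to 11.3), and Gfra1, a receptor subunit for the neurotrophic factor GDNF (555 against 63.7 CPM, ratio 8.71, interval 7.27 to 10.5). The Mup, Cyp2c, Cyp3a and Sult2a genes have close copies, and reads of such copies can be assigned to a wrong member, so the identity of the single member is uncertain.

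Of the 15 genes lowest in WT ApoE, 6 were markers of macrophages or antigen-presenting cells (Cd74, H2-Aa, H2-Eb1, Cd5l, C1qb and C1qc) and 1, Spp1, is on the cholangiocyte list and is made by several other cell types. The first of the ranking was Ly6d, a GPI-anchored surface protein gene, with 8 UMIs in 4040 cells of WT ApoE and 796 in 616 of WT, or 0.908 against 423 CPM. After thinning to equal depth, Ly6d was seen in 0.0803% of WT ApoE cells and 33.8% of WT cells. Slpi, a secreted inhibitor of leukocyte proteases, had 3 against 180 UMIs. Cib3, a gene of the calcium- and integrin-binding family, had 1 against 113, and Ntrk2, the receptor for brain-derived neurotrophic factor, 2 against 98. Lpl, lipoprotein lipase, had 1 against 82, Anxa2, a membrane-binding annexin, 3 against 88, and S100a11, a calcium-binding protein, 14 against 150. All 15 were below the lowest WT cluster in every WT ApoE cluster, as were 126 of all 966 lower genes. The highest WT ApoE cluster reached 4.13 CPM of Ly6d, and the lowest WT cluster had 127. Mup20, the only gene of the 15 that is abundant in both libraries, stood at 106 against 4339 CPM, 40.7-fold (38.1 to 43.6) lower.

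Genes that glucocorticoids or fasting induce in liver stood higher as a group in WT ApoE. Of the 16 compared genes of this list, 13 were higher (background 18.2%) and 1 lower (background 18.5%), with a median log2 ratio of 1.51 against 0.04 for all genes. The median was 1.38 in cells under 2% mitochondrial UMIs and 1.72 in cells with at least 5%, and 1.87 in cells without a macrophage or MHC class II UMI. This list and those below were chosen with earlier results of these data known. Some genes, such as Pck1, are on more than 1 list. The list counts are therefore descriptive and not independent of each other. Lpin1, a phosphatidate phosphatase and coactivator induced by glucocorticoids and fasting, had 8208 UMIs in WT ApoE and 106 in WT. That is 931 against 56.3 CPM, a ratio of 16.5 (13.7 to 20.2), and it was 563 to 1255 CPM over the WT ApoE clusters and 16.8 to 154 CPM over the WT clusters. After thinning, Lpin1 was seen in 57.0% against 5.19% of cells. Fkbp5, a cochaperone of the glucocorticoid receptor and one of its direct targets, stood at 211 against 24.4 CPM (ratio 8.64, interval 6.45 to 11.8), and Angptl4, an inhibitor of lipoprotein lipase, at 105 against 12.7 CPM (ratio 8.25, interval 5.51 to 12.9). In cells under 2% and with at least 5% mitochondrial UMIs, the ratios were 5.61 and 17.8 for Fkbp5 and 5.602 and 15.6 for Angptl4. Tsc22d3, the glucocorticoid-induced leucine zipper, stood at 169 against 35.05 CPM, the stress sensor Gadd45g at 116 against 37.2 CPM and the insulin receptor substrate Irs2 at 52.9 against 20.2 CPM. Errfi1, an inhibitor of the EGF receptor, stood at 1755 against 750.3 CPM, and the transcription factor Klf9 at 215 against 92.9 CPM. Of the 13 higher genes, 7 were higher in every cluster (84 of 949 over all higher genes): Lpin1, Fkbp5, Angptl4, Pck1, Gadd45g, Igfbp1 and Dusp1. The exception downward was Cdkn1a, the cell cycle inhibitor p21, at 10.3 against 39.8 CPM. The metallothionein genes Mt1 and Mt2 lay within 1.5-fold (1319 against 1831 CPM and 137 against 181 CPM). The other 4 listed genes fell under the level limit, among them Per1 (13.1 against 6.37 CPM) and Sgk1 (9.53 against 14.3 CPM).

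The promoters of 3 of the higher genes of the fasting and gluconeogenic groups and of 1 lower gene, Apoa4, are shown here because short motifs of the regulators named for these groups can be looked for in them. They are the 250 bases before a RefSeq transcription start, 5′ to 3′ on the strand of the gene, on build GRCm38.p6. Starts differ between annotations. In the GENCODE annotation, G6pc starts at base 101367561, Pck1 at 173153048 and Apoa4 at 46240696. These starts lie inside the windows given next, so part of each of those windows is within the gene in that annotation. Lpin1 lies on chr12:16610967-16611216 (minus strand), G6pc on chr11:101367466-101367715 (plus), Pck1 on chr2:173152823-173153072 (plus) and Apoa4 on chr9:46240594-46240843 (plus). Capitals mark AGAACA (a half-site of the glucocorticoid receptor), AAAACA (the core of elements bound by FOXO factors) and TGACG (a half-site of cyclic AMP response elements), each on either strand.
Lpin1: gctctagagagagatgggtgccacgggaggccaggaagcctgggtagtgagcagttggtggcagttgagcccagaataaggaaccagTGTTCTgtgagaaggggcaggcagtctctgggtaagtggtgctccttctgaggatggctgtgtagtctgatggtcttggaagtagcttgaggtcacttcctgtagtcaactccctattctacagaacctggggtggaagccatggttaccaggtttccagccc
G6pc: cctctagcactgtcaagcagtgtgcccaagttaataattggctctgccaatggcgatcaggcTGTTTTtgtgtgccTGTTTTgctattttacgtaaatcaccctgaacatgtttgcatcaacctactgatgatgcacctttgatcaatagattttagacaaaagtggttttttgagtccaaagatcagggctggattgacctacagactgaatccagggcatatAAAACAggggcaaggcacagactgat
Pck1: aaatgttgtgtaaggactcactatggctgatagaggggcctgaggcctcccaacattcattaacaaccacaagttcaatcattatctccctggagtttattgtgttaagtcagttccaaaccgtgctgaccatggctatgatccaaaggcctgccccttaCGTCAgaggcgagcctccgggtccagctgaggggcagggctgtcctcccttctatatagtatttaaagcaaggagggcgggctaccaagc
Apoa4: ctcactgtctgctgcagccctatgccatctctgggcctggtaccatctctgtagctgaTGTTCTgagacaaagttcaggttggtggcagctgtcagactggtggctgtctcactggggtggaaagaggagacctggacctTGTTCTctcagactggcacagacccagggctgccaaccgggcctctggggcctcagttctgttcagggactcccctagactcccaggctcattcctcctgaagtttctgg
Lpin1 had 1 copy of AGAACA, G6pc 3 copies of AAAACA and Pck1 1 copy of TGACG. The last of the G6pc copies overlaps a match of the TATA box (TATAAA). Apoa4, a lower gene, had 2 copies of AGAACA. Among 27025 mouse promoters of the same length, AGAACA occurred in 16.2%, AAAACA in 20.1% and TGACG in 17.9%. Of 17 promoters found for the glucocorticoid and fasting list, AGAACA was in 2 (11.8%), AAAACA in 3 (17.6%) and TGACG in 5 (29.4%). Of 11 found for the gluconeogenesis list, AGAACA was in 0, AAAACA in 3 (27.3%) and TGACG in 4 (36.4%). These are matches of letters in a short window, and more distant sites were not searched.

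**Figure D2:**
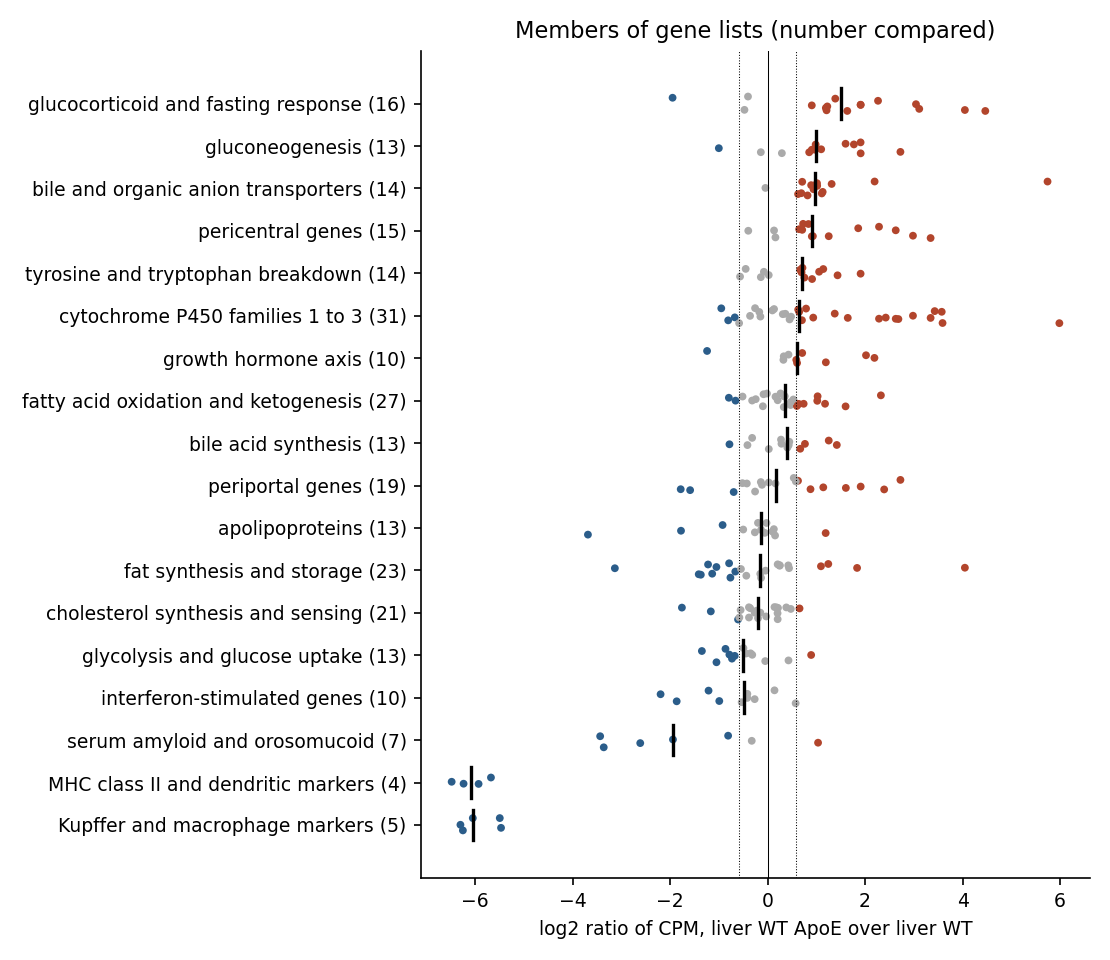
Log2 ratio of CPM, WT ApoE over WT, of each compared member (point) of 18 gene lists, with the number compared in brackets. Bars are list medians, dotted lines mark 1.5-fold, red and blue points lie past it upward and downward, and Slco1a1 is drawn at its lower bound; the glucocorticoid and fasting list has 13 of 16 points to the right of the line, the serum amyloid and orosomucoid list 5 of 7 to the left.

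Gluconeogenic genes were higher in WT ApoE and several glycolytic genes lower. Of the gluconeogenesis list, 10 of 13 compared genes were higher and 1 lower, with a median log2 ratio of 0.99. The median was 0.94 in cells under 2% mitochondrial UMIs and 1.18 in cells with at least 5%. G6pc, the catalytic subunit of glucose-6-phosphatase, which releases free glucose, had 7678 against 248 UMIs, or 871 against 132 CPM, a ratio of 6.62 (5.83 to 7.54). Its ratio was 3.95 in cells under 2% mitochondrial UMIs and 10.1 in cells with at least 5%. Its clusters overlapped: they spanned 422 to 1433 CPM in WT ApoE and 39.2 to 557 CPM in WT. Pck1, which makes phosphoenolpyruvate from oxaloacetate, stood at 2551 against 679 CPM (ratio 3.76, interval 3.55 to 3.98) and was higher in every cluster (1893 to 3114 CPM against 245 to 1451). Tat, tyrosine aminotransferase, stood at 1296 against 345 CPM (ratio 3.75, interval 3.47 to 4.07), and the coactivator Ppargc1a at 91.8 against 30.3 CPM (ratio 3.03, interval 2.32 to 4.04). Foxo1, a transcription factor that insulin keeps out of the nucleus, stood at 178 against 52.04 CPM, and the aminotransferase genes Got1 and Gpt2 at 543 against 253 CPM and 307 against 157 CPM. The lower gene of the list was Fbp1, fructose-1,6-bisphosphatase, at 1101 against 2201 CPM, 1.999-fold (1.93 to 2.07) lower.

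For glycolysis and glucose uptake, 1 of 13 compared genes were higher and 6 lower, with a median log2 ratio of -0.49. The median of this list was -0.61 in cells under 2% mitochondrial UMIs and -0.15 in cells with at least 5%, where 2 genes were past 1.5-fold downward. Gapdh stood at 539 against 1370.0 CPM, 2.54-fold (2.42 to 2.67) lower, and enolase (Eno1) at 122 against 251 CPM, 2.07-fold (1.85 to 2.31) lower. Liver pyruvate kinase (Pklr) stood at 45.1 against 74.9 CPM. Pfkfb1, the liver enzyme that sets fructose-2,6-bisphosphate, was the higher gene (36.5 against 19.6 CPM). In glycogen metabolism, 5 of 10 compared genes were higher and 1 lower, with a median log2 ratio of 0.54, but the median was 0.07 over all 16 listed genes, those under the level limit included. In cells under 2% mitochondrial UMIs 2 of the 10 were higher, with a median of 0.28, and after thinning 3. Liver glycogen synthase (Gys2) stood at 179.9 against 63.2 CPM (ratio 2.85, interval 2.36 to 3.46), while glycogen phosphorylase (Pygl), at 274 against 259 CPM, had a ratio of 1.06 (0.958 to 1.17) whose interval includes 1.

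**Figure D3:**
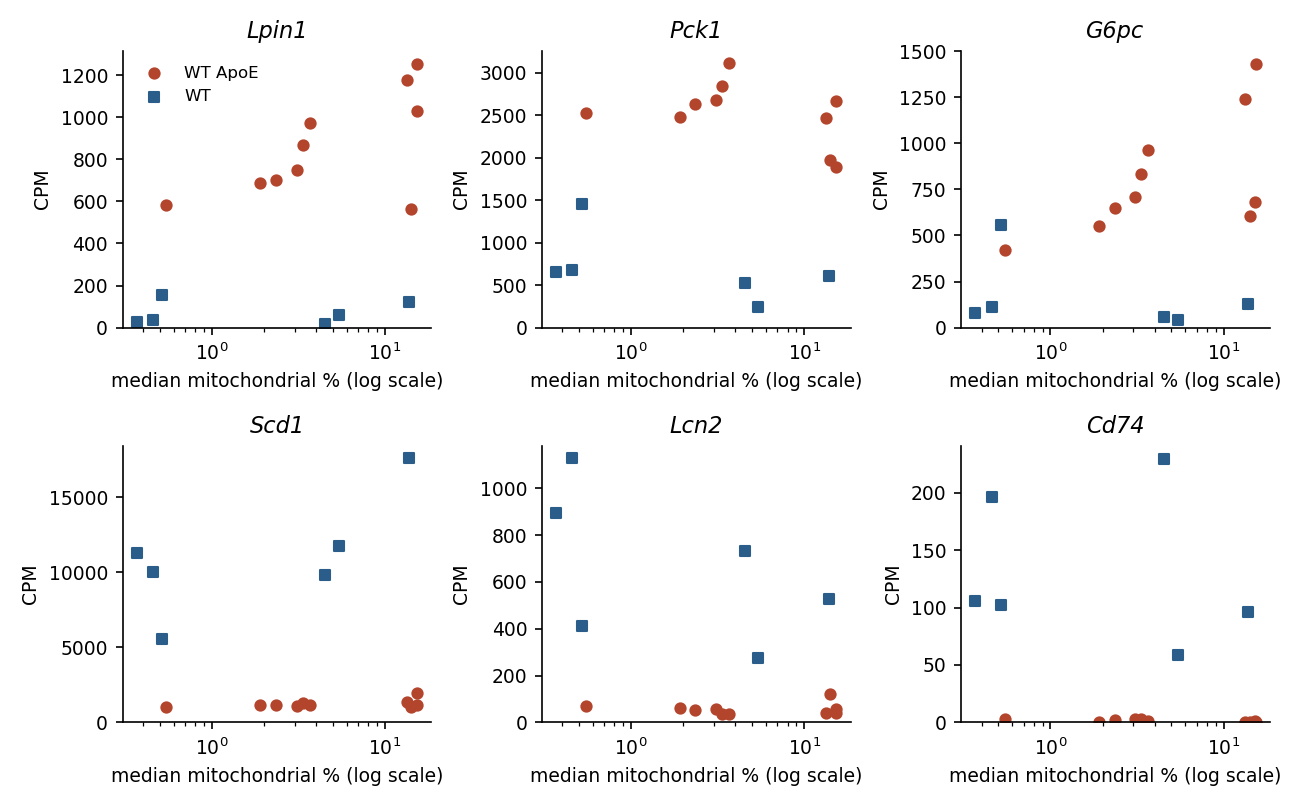
CPM of 6 genes in each of the authors' clusters of at least 25 cells (10 of WT ApoE, circles; 6 of WT, squares) against the cluster's median mitochondrial share of UMIs (log scale). Lpin1 and Pck1 are higher, and Scd1, Lcn2 and Cd74 lower, in every WT ApoE cluster than in every WT cluster, at low and at high mitochondrial shares; the clusters of G6pc overlap.

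Pericentral genes were higher in WT ApoE. Of this list, 12 of 15 compared genes were higher and 0 lower, with a median log2 ratio of 0.91, and the median was 0.85 in cells under 2% mitochondrial UMIs and 1.02 in cells with at least 5%. Cyp2e1, which oxidizes ethanol and small solvents, had 24181 against 835 UMIs, or 2743 against 443 CPM, a ratio of 6.19 (5.78 to 6.64). After thinning it was seen in 90.5% against 33.0% of cells. No gene of the list was higher in every cluster, which 84 of all 949 higher genes were. Cyp2e1 spanned 499 to 4015 CPM over the WT ApoE clusters and 193 to 1772 CPM over the WT clusters. With such a spread, a ratio over all cells also depends on the mix of clusters in each library. Cyp1a2, which acts on caffeine and aromatic amines, stood at 396 against 81.2 CPM, and Slc1a2, a glutamate carrier, at 355 against 97.7 CPM. Rgn, a calcium-binding lactonase, stood at 1608 against 844 CPM, and Oat, ornithine aminotransferase, at 988 against 596 CPM. The highest cluster of Oat was a WT cluster, at 3847 CPM, against 2738 CPM in the highest WT ApoE cluster. The glutamine synthetase gene Glul, confined to the cells next to the central vein in normal liver, differed little (662 against 592 CPM), as did Cyp2a5 (503 against 459 CPM). Axin2, Lgr5, Rhbg, Slc13a3 and Tbx3 were below the level limit. Periportal genes went both ways: 7 of 19 compared genes were higher and 3 lower, with a median log2 ratio of 0.16. Cps1, the entry enzyme of the urea cycle, stood at 3799.8 against 1248 CPM (ratio 3.04, interval 2.92 to 3.18), and Etnppl, a phospholyase of phosphoethanolamine, at 97.6 against 18.6 CPM. Lower periportal genes were Aldh1b1 (45.3 against 156 CPM), Hsd17b13, a lipid droplet enzyme (179 against 538 CPM), and Apof (592 against 958 CPM).

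For cytochrome P450 genes of families 1 to 3, 17 of 31 compared genes were higher and 3 lower, with a median log2 ratio of 0.65. The median was 0.64 in cells under 2% mitochondrial UMIs and 0.90 in cells with at least 5%. The largest ratios were in the Cyp2c and Cyp3a groups. Cyp2c37 stood at 356 against 35.05 CPM (ratio 10.2, interval 7.96 to 13.2) and Cyp2c50 at 491 against 62.1 CPM (ratio 7.91, interval 6.58 to 9.58). Cyp3a44 stood at 288 against 23.9 CPM (ratio 12.04, interval 8.97 to 16.6) and was higher in every cluster, as was Cyp2c54. Cyp3a41b stood at 82.1 against 6.903 CPM and Cyp3a16 at 68.6 against 6.37 CPM. Other genes of the same families lay within 1.5-fold, among them Cyp3a11 (965 against 901 CPM), Cyp2c70 (914 against 1028 CPM) and Cyp2f2 (382 against 456 CPM). The lower genes were Cyp2a4 (199.7 against 318 CPM), Cyp2a12 (153 against 268 CPM) and Cyp2a22 (20.1 against 38.8 CPM). Of the conjugation enzymes, 9 of 32 compared genes were higher and 9 lower, with a median log2 ratio of 0.07. Besides the sulfotransferases given above, Ugt1a1, which conjugates bilirubin, stood at 95.1 against 13.8 CPM (ratio 6.89, interval 4.67 to 10.6). Glutathione transferases of the mu class stood the other way, Gstm3 at 26.4 against 237 CPM, 8.96-fold (7.63 to 10.5) lower, Gstm2 at 32.7 against 121 CPM and Gstm1 at 1176 against 2339 CPM. Microsomal glutathione transferase (Mgst1) stood at 2562 against 4392 CPM. Members of the Ugt1a and Gstm groups also have near copies or shared 3′ ends.

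Carriers of bile salts, organic anions and sterols were almost all higher. Of this list, 13 of 14 compared genes were higher and 0 lower, with a median log2 ratio of 0.98, and the median was 0.82 in cells under 2% mitochondrial UMIs and 0.88 in cells with at least 5%. On the sinusoidal side, Slco1b2, a carrier of bilirubin and drugs, stood at 1258 against 621 CPM (ratio 2.02, interval 1.91 to 2.15), Slco1a4 at 226 against 90.8 CPM (ratio 2.49, interval 2.13 to 2.93) and the sodium-bile salt carrier Slc10a1 at 456 against 245 CPM (ratio 1.86, interval 1.69 to 2.05). On the canalicular side, the bile salt export pump Abcb11 stood at 285 against 130.1 CPM, the phospholipid floppase Abcb4 at 415 against 269 CPM and Abcc2, an exporter of conjugates, at 613 against 347 CPM. Abcg5 and Abcg8, the subunits of the sterol exporter, stood at 49.01 against 25.5 CPM and 92.5 against 20.2 CPM. Only Slc10a1 of the list was higher in every cluster, against 84 of all 949 higher genes. Abcg2, at 31.4 against 32.4 CPM, was the compared gene within 1.5-fold. Slco1a1, at 0 in WT, enters the median as the highest member. In bile acid synthesis, 4 of 13 compared genes were higher and 1 lower (18.2% and 18.5% over all genes), with a median log2 ratio of 0.41. Cyp7b1 and Cyp27a1, of the alternative pathway, stood at 93.8 against 35.05 CPM (ratio 2.68, interval 2.08 to 3.495) and 149.5 against 62.7 CPM (ratio 2.39, interval 1.98 to 2.91). Cyp8b1, which sets cholic acid synthesis, was the lower gene (32.5 against 55.8 CPM, 1.72-fold (1.36 to 2.16) lower).

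Enzymes that break down aromatic amino acids were higher. Of the tyrosine and tryptophan list, 9 of 14 compared genes were higher and 0 lower, with a median log2 ratio of 0.71. The median was 0.55 in cells under 2% mitochondrial UMIs and 0.81 in cells with at least 5%. Tdo2, which opens the tryptophan ring, stood at 1371 against 658 CPM (ratio 2.08, interval 1.96 to 2.21), and Hpd, the next enzyme after Tat in tyrosine breakdown, at 1462 against 776 CPM. Tdo2 and Fah were among the genes higher in every cluster. In the urea cycle, 5 of 12 compared genes were higher and 1 lower, with a median log2 ratio of 0.19. Beside Cps1, these were carriers and side enzymes such as the ornithine carrier Slc25a15 (216 against 126 CPM, higher in every cluster), while arginase (Arg1, 785 against 849 CPM) and argininosuccinate synthase (Ass1, 1469 against 1973 CPM) lay within 1.5-fold.

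Genes of the growth hormone axis were mostly above 1. Of this list, 6 of 10 compared genes were higher and 1 lower, with a median log2 ratio of 0.60. Serpina3k, a serpin whose transcription needs growth hormone, stood at 2917 against 719.5 CPM (ratio 4.05, interval 3.84 to 4.29) and was higher in every cluster. Egfr, the EGF receptor, stood at 668 against 146 CPM (ratio 4.57, interval 4.05 to 5.18), Igf1 at 1464 against 962 CPM (ratio 1.52) and Igfbp1, a binding protein that insulin represses, at 141 against 61.6 CPM (ratio 2.29, interval 1.89 to 2.796). Socs2, a feedback inhibitor that growth hormone induces quickly, was lower (11.9 against 28.1 CPM), and Cish, another one, stood at 7.38 against 21.8 CPM, under the level limit. Growth hormone pulses also set the difference between male and female liver. On the list of genes whose liver expression is known to differ by sex, 8 of 14 compared genes were higher and 1 lower, with a median log2 ratio of 1.21. Genes usually higher in female liver included Sult3a1 and Cyp3a44, given above, Cyp3a41a (98.02 against 31.3 CPM) and Cux2 (50.1 against 24.96 CPM). Of those usually higher in male liver, Slco1a1 and Cyp7b1 were higher in WT ApoE and Mup20 was lower. Xist, the RNA that coats an inactive X chromosome, was present in both libraries, at 643 against 441 CPM. Its share of thinned cells was 37.6% against 26.6%. The direction turned in cells under 2% mitochondrial UMIs, where Xist had a ratio of 0.733, and the ratio was 1.69 in cells with at least 5%.

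The major urinary proteins, lipocalins that carry pheromones, did not move as 1 group. Of 22 listed genes, 6 reached the level limit; 3 were higher, 1 lower and 2 between. Mup3, the most abundant, was equal within counting error (6521 against 6580.0 CPM, ratio 0.991, interval 0.972 to 1.01). Mup17 stood at 2243 against 654 CPM (ratio 3.43, interval 3.24 to 3.64), Mup11 as given above and Mup18 at 74.99 against 32.9 CPM. Mup20, the male pheromone darcin, was seen in 11.2% of thinned WT ApoE cells and 92.5% of thinned WT cells. Its level over clusters was 58.05 to 176 CPM in WT ApoE and 1891 to 5239 CPM in WT. In DKO ApoE, Mup20 stood at 75.5 CPM and Mup11 at 251 CPM.

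Fat synthesis and storage genes differed in both directions, more of them lower than higher. Of this list, 4 of 23 compared genes were higher and 9 lower, with a median log2 ratio of -0.15; the summed level of its members was 6982 against 17339 CPM, and in WT most of it was Scd1. The median was -0.64 in cells under 2% mitochondrial UMIs and -0.26 in cells with at least 5%, and -0.44 without cells carrying macrophage or MHC class II UMIs. Scd1, which makes monounsaturated fatty acids, had 11371 UMIs in 4040 cells of WT ApoE and 21286 in 616 of WT, or 1290.1 against 11303 CPM, 8.76-fold (8.56 to 8.96) lower. Over clusters Scd1 spanned 1006 to 1936 CPM in WT ApoE and 5556 to 17605 CPM in WT, with no overlap. After thinning it was seen in 2514 of 3735 WT ApoE cells (67.3%) and 597 of 597 WT cells. Elovl6 and Elovl5, which lengthen fatty acids, stood at 115 against 298 CPM and 165 against 362 CPM, and fatty acid synthase (Fasn) at 181 against 374 CPM. The lipid droplet coat gene Plin2 stood at 326 against 759 CPM, 2.33-fold (2.19 to 2.48) lower, whereas Plin5, a droplet protein of oxidative tissues, stood at 94.8 against 26.6 CPM, a ratio of 3.57 (2.68 to 4.85). Lpin1 and Lpin2 (752 against 317 CPM) were the other large upward differences. The regulators Srebf1 (60.9 against 62.7 CPM) and Mlxipl (90.8 against 78.6 CPM) lay within 1.5-fold, as did Acly, ATP citrate lyase (154 against 171 CPM). Pnpla3, a lipase that insulin and SREBP-1c induce, stood at 1.59 against 21.8 CPM, under the level limit.

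In fatty acid oxidation and ketogenesis, 9 of 27 compared genes were higher and 2 lower, with a median log2 ratio of 0.35, and the median was 0.42 in cells under 2% mitochondrial UMIs and 0.45 in cells with at least 5%. The higher genes included Cyp4a14 (726 against 145 CPM, ratio 5.01, interval 4.44 to 5.68) and Cyp4a10 (356 against 157 CPM, ratio 2.27, interval 2.01 to 2.56). Ppara, the gene of the nuclear receptor PPAR alpha, stood at 369.6 against 237 CPM (ratio 1.56, interval 1.41 to 1.73). Its ratio was 0.954 in cells under 2% mitochondrial UMIs. The mitochondrial enzymes of the main spiral differed little, such as Acadm (549 against 433 CPM) and Hadha (275 against 245 CPM). Acaa1a and Acaa1b, near-identical peroxisomal thiolase genes, were lower (51.2 against 88.7 CPM and 472 against 744 CPM). Of 6 compared fatty acid binding protein genes, 3 were lower and none higher past 1.5-fold. Fabp5, a form of skin and macrophages that liver also makes, stood at 133 against 722 CPM, 5.44-fold (5.02 to 5.88) lower, beside the macrophage markers given above. Its log2 ratio was -2.44 over all cells and -2.49 in cells without a macrophage or MHC class II UMI, which may still hold macrophage RNA. The part of such RNA in Fabp5 was not tested. Dbi, the acyl-CoA binding protein, stood at 2833 against 6625 CPM, and Fabp1, the liver form, at 14972 against 17873 CPM. In cholesterol synthesis and sensing, 1 of 21 compared genes were higher and 3 lower, with a median log2 ratio of -0.19. Both counts are below the 18.2% and 18.5% of all compared genes. Fdps, farnesyl diphosphate synthase, stood at 106 against 357 CPM, 3.38-fold (3.06 to 3.73) lower.

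Apoe, the gene that the labels point to, was low in both libraries. It had 318 UMIs in WT ApoE (36.1 CPM, 32.2 to 40.3) and 96 in WT (50.98 CPM, 41.3 to 62.2), a ratio of 0.708 (0.562 to 0.899), and its clusters overlapped (21.9 to 80.5 and 33.6 to 97.9 CPM). The WT library also carries the macrophage transcripts given above, and macrophages make Apoe. In cells without a macrophage or MHC class II UMI, the log2 ratio of Apoe was -0.78, against -0.50 over all cells. The part of macrophage RNA in these counts was not tested. After thinning, Apoe was seen in 3.21% of WT ApoE cells and 4.19% of WT cells. The labels do not give the Apoe genotype of either library, and it was not tested here. The comparison therefore cannot be read as one of Apoe genotypes. For scale, Apoc1 stood at 8674 against 9511 CPM and Apoc4 at 2042 against 2121 CPM, on a scale that counts molecules by their 3′ end and needs no correction for transcript length.

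Of the other apolipoproteins, most differed by less than 1.5-fold. For the whole list, 1 of 13 compared genes were higher and 3 lower (18.2% and 18.5% over all genes), with a median log2 ratio of -0.13. Its median was 0.16 in cells under 2% mitochondrial UMIs and -0.46 in cells with at least 5%. Apob, the structural protein of VLDL and LDL, stood at 3288 against 1439 CPM (ratio 2.29, interval 2.197 to 2.38), higher in every cluster, and Mttp, which loads lipid onto it, at 152 against 84.4 CPM (ratio 1.799, interval 1.53 to 2.13). Apoa4, a protein of triglyceride-rich particles, stood at 97.3 against 1251 CPM, 12.8-fold (11.9 to 13.9) lower, and at 184 CPM in DKO ApoE. Apoc2, the activator of lipoprotein lipase, stood at 796 against 2724 CPM, 3.42-fold (3.301 to 3.55) lower, and Apoc3, an inhibitor of remnant clearance, at 7137 against 13521 CPM. In lipoprotein assembly and remodelling, 2 of 14 compared genes were higher and 6 lower, with a median log2 ratio of -0.48. Angptl8, an insulin-induced factor that takes part in lipase inhibition, stood at 22.8 against 113 CPM, 4.96-fold (4.07 to 6.04) lower, opposite to Angptl4. Lpl and Pltp (2.95 against 45.7 CPM) were also lower, and macrophages make both. In cells without a macrophage or MHC class II UMI (100 in WT), their log2 ratios were -8.37 and -4.02, against -8.58 and -3.95 over all cells. The part of macrophage RNA was not tested.

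Of 8 compared lipoprotein receptors and their regulators, 1 was higher and 1 lower, against 18.2% and 18.5% of all compared genes. Lrp1, a receptor for remnants, stood at 173 against 108 CPM, a ratio of 1.603 (1.38 to 1.86), but of 1.32, within 1.5-fold, in cells under 2% mitochondrial UMIs. Cd36, a fatty acid translocase, stood at 50.4 against 116 CPM, 2.298-fold (1.95 to 2.71) lower. Epn1 stood at 58.8 against 47.8 CPM (ratio 1.23, interval 0.982 to 1.56) and Epn2 at 7.71 against 8.496 CPM (ratio 0.908, interval 0.521 to 1.68), both with intervals that include 1. Of 12 compared genes of epsins and clathrin adaptors, none was higher past 1.5-fold and 2 were lower, Clta (168 against 262 CPM) and Itsn1 (13.9 against 30.8 CPM), a share near the 18.5% of all compared genes. Clta was within 1.5-fold in both classes of cells, with ratios of 0.735 under 2% mitochondrial UMIs and 0.726 at 5% or more.

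**Figure D4:**
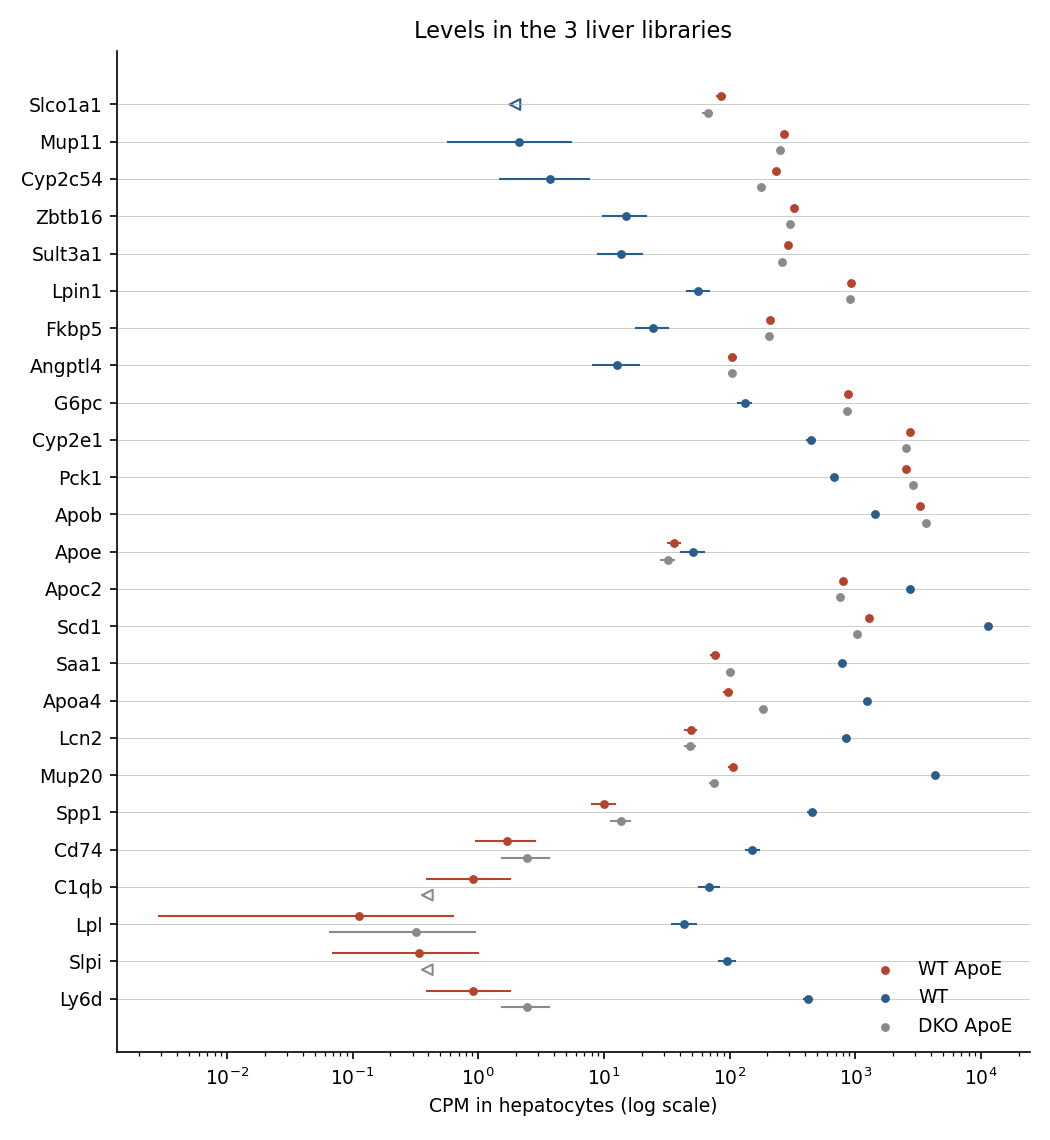
CPM with 95% Poisson intervals of 25 genes in hepatocytes of WT ApoE (red), WT (blue) and DKO ApoE (grey) on a log axis; open triangles are upper limits where a library had no UMI. For Lpin1 (931, 56.3 and 905 CPM) or Scd1 (1290.1, 11303 and 1039.9 CPM) the library without a named background lies far from the other 2, while for Apoe all 3 lie close together.

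The DKO ApoE library, which carries the other genotype label, gives 1 more set of levels and shares its processing table with WT ApoE. In DKO ApoE, WT ApoE and WT, Zbtb16 stood at 305, 329 and 14.9 CPM and Fkbp5 at 207, 211 and 24.4 CPM. Lcn2 stood at 48.7, 49.1 and 848 CPM and Ly6d at 2.45, 0.908 and 423 CPM in the same order. The tables of the ApoE livers were deposited together and that of WT apart, so the label, the table and the preparation cannot be told apart.

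Serum amyloid and orosomucoid genes, acute-phase genes that cytokines such as interleukin 6 induce in hepatocytes, were mostly lower in WT ApoE. Of the serum amyloid and orosomucoid list, 1 of 7 compared genes were higher and 5 lower, with a median log2 ratio of -1.94. The median was -1.17 in cells under 2% mitochondrial UMIs and -2.20 in cells with at least 5%, and -2.12 without cells carrying macrophage or MHC class II UMIs. Saa1 had 678 against 1487 UMIs, or 76.9 against 789.6 CPM, 10.3-fold (9.37 to 11.3) lower, and was seen in 8.14% against 52.1% of thinned cells. Saa2 stood at 44.2 against 478 CPM, 10.8-fold (9.58 to 12.2) lower, and Orm2 at 28.2 against 173 CPM, 6.11-fold (5.16 to 7.23) lower. Saa4, the constitutive member, was higher (209 against 102 CPM). Saa1 and Saa2 are near-identical copies. Lcn2, an iron-siderophore binding lipocalin, stood at 49.1 against 848 CPM, 17.3-fold (15.5 to 19.2) lower, with 37.8 to 121 CPM over WT ApoE clusters and 274 to 1128 over WT clusters. Of all other acute-phase proteins, 5 of 22 compared genes were higher and 7 lower, with a median log2 ratio of -0.29. Haptoglobin (Hp) and hemopexin (Hpx), which scavenge haemoglobin and haem, stood at 1112 against 3792 CPM and 2574 against 6348 CPM. Hamp2, a hepcidin gene, stood at 512 against 1496 CPM. Il1r1, the interleukin 1 receptor (98.7 against 26.6 CPM, ratio 3.72, interval 2.79 to 5.05), Itih4 (1045 against 479.5 CPM) and Crp (505 against 288 CPM) stood the other way. The ratio of Il1r1 was 1.97 in cells under 2% mitochondrial UMIs and 6.77 in cells with at least 5%. The summed level of Kupffer cell markers, 8.05 against 431 CPM, moved with these genes; its part in them was not tested.

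Of complement and coagulation genes, 8 of 35 compared genes were higher and 4 lower, with a median log2 ratio of 0.14, not far from the 18.2% and 18.5% of all compared genes. C3 stood at 2678 against 1351 CPM (ratio 1.98, interval 1.903 to 2.07) and Hc, complement C5, at 484 against 224 CPM, both higher in every cluster. C9, of the membrane attack complex, stood at 104 against 286 CPM, 2.75-fold (2.47 to 3.06) lower, and antithrombin (Serpinc1) at 1124 against 2051 CPM. Interferon-stimulated genes were not higher: 4 of 10 compared were lower and none higher past 1.5-fold. Bst2 stood at 85.7 against 312 CPM, 3.64-fold (3.26 to 4.06) lower, and Psmb9, an immunoproteasome subunit, at 15.2 against 69.6 CPM. Both are also made by macrophages. In cells without a macrophage or MHC class II UMI, their log2 ratios were -1.50 and -1.20, against -1.86 and -2.19 over all cells. The part of macrophage RNA in them was not tested. Of the antioxidant list, 1 of 14 compared genes were higher and 4 lower, with a median log2 ratio of -0.32, with Gpx4, which reduces lipid peroxides, at 192 against 581 CPM and the regulator Nfe2l2 at 56.7 against 151 CPM. Sod1 was the higher gene of that list (1119.6 against 547 CPM). Of the unfolded protein response, 3 of 17 compared genes were higher and 3 lower, with a median log2 ratio of -0.20, close to the shares over all genes. Herpud1, of endoplasmic reticulum degradation, stood at 601 against 249.6 CPM and Manf, a secreted stress factor, at 86.5 against 227 CPM. In metal handling, 2 of 10 compared genes were higher and 2 lower, close to the shares over all genes, with a median log2 ratio of -0.40. The ferritin genes Fth1 and Ftl1 stood at 4731 against 7755 CPM and 3441 against 5747 CPM. Cytosolic heat shock proteins had 1 higher and 1 lower gene of 9, below the shares over all genes.

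Immediate early genes, which are induced within minutes of stimulation and also during tissue dissociation, were mostly lower in WT ApoE. Of this list, 1 of 11 compared genes were higher and 7 lower, with a median log2 ratio of -0.67. The median was -0.81 in cells under 2% mitochondrial UMIs and -0.89 in cells with at least 5%. Jund stood at 158 against 362 CPM, 2.29-fold (2.08 to 2.51) lower, Junb at 49.6 against 122 CPM, 2.46-fold (2.09 to 2.896) lower, and Klf6 at 5.900 against 52.04 CPM, 8.82-fold (6.24 to 12.6) lower. Fos stood at 106 against 159.8 CPM and Atf3 at 31.4 against 58.9 CPM. Dusp1, a phosphatase that glucocorticoids also induce, was the higher gene (173 against 92.4 CPM, ratio 1.88, interval 1.603 to 2.21), and Egr1 had a ratio of 1.38 (1.23 to 1.55).

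Among hepatocyte transcription factors, 6 of 16 compared genes were higher and 2 lower, with a median log2 ratio of 0.39. The median was -0.05 in cells under 2% mitochondrial UMIs and 0.42 in cells with at least 5%. Hnf4a, a master regulator of the hepatocyte, stood at 228 against 112 CPM (ratio 2.03, interval 1.76 to 2.36). The xenobiotic receptors Nr1i2 (PXR) and Nr1i3 (CAR) stood at 93.8 against 36.6 CPM and 141 against 65.8 CPM, and Rxra, the partner of both, at 136 against 60.00 CPM. Cebpa was lower in every cluster (68.1 against 139 CPM, 2.04-fold (1.76 to 2.37) lower), whereas Cebpb, induced in the acute-phase response and fasting, was higher (324 against 183 CPM, ratio 1.77, interval 1.58 to 1.99). Clock genes, whose levels follow the hour of the day, had 3 higher and 2 lower of 12 compared. These counts are not far from the 18.2% and 18.5% of all compared genes. Usp2, a clock-controlled protease, stood at 101 against 31.3 CPM (ratio 3.23, interval 2.48 to 4.28), and Hlf and Tef, PAR-domain factors, at 134 against 67.97 CPM and 76.01 against 43.01 CPM. Dbp, the third of those factors, stood at 58.3 against 114 CPM, 1.96-fold (1.66 to 2.300) lower, and Nr1d1, the repressor REV-ERB alpha, at 19.9 against 44.1 CPM, 2.22-fold (1.69 to 2.899) lower. The hour of collection is not given in the labels.

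Transcripts of other cell types differed between the libraries. All 5 compared Kupffer markers and all 4 compared MHC class II genes were lower in WT ApoE, in every cluster (126 of 966 over all lower genes). The defining Kupffer gene Clec4f stood at 0.681 against 21.8 CPM, Cd5l at 1.25 against 98.2 CPM and C1qb at 0.908 against 69.03 CPM; none of the 12 markers was at 0 in either library. Cd74, the invariant chain of MHC class II, stood at 1.702 against 152 CPM. Of the 8 genes of that list, 2 were at 0 in WT ApoE and 2 in WT. Summed levels of the lists with at most 1 compared gene were 11.3 against 63.7 CPM for endothelial, 9.08 against 37.2 CPM for stellate and fibroblast, 48.3 against 20.7 CPM for B and plasma cell, 4.08 against 10.1 CPM for T and NK cell and 6.13 against 7.43 CPM for neutrophil markers. WT cells carried few such UMIs each, with a mean of 1.32 and a highest value of 10 for the Kupffer list, and after thinning 215 of 597 WT cells and 40 of 3735 WT ApoE cells (1.07%, 0.766 to 1.46) had at least 1. The WT table holds no other cell type in which the level of free RNA could be read. Spp1, osteopontin, stood at 9.98 against 454 CPM, but at a ratio of 0.0864 in cells under 2% mitochondrial UMIs and 0.00436 in cells with at least 5%. Its UMIs in WT ApoE lay in 13 of 4040 cells, with up to 37 in 1 cell. Without clusters 14, 16 and 18 of WT ApoE, its log2 ratio went from -5.51 to -7.79. Pancreatic acinar transcripts stood the other way, with a summed level of 213 against 19.6 CPM over 13 genes, 10 of which were at 0 in WT. Cela1, an elastase, stood at 65.5 against 13.8 CPM, and Igkc, an immunoglobulin light chain, at 40.96 against 13.3 CPM. Haemoglobin transcripts were concentrated in few cells: the erythroid markers summed to 515 against 2352 CPM, with up to 951 UMIs in 1 WT ApoE cell and 1976 in 1 WT cell. Without the 111 cells of WT cluster 2, the median log2 ratio of the erythroid list turned from -2.22 to 6.45. Without clusters 14, 16 and 18 of WT ApoE instead, log2 ratios of haemoglobin genes moved the other way. They went from -2.24 to -8.03 for Hbb-bs, -2.26 to -8.62 for Hba-a2 and -2.20 to -7.46 for Hba-a1. The direction therefore rests on few cells of either library.

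Mitochondrially encoded transcripts, which all come from 1 circular genome, were higher in WT ApoE over all cells: 9 of 13 were higher and none lower, with a median log2 ratio of 0.76 and a summed level of 79467 against 44559 CPM. The difference followed the mitochondrial class of the cells, by which it is partly defined. The median was 1.29 in cells under 2% mitochondrial UMIs and -0.12 in cells with at least 5%. mt-Nd5, a subunit of complex I, stood at 2257 against 503 CPM, and mt-Co1, of complex IV, at 20057 against 7892 CPM. Nuclear genes of oxidative phosphorylation had 1 higher and 6 lower of 32, with a median of -0.36, and medians of 0.16 and -0.52 in the same classes. Cytosolic ribosomal protein genes were close to even (3 higher and 1 lower of 38). Gm42418, Cmss1 and Lars2, loci whose reads are often ribosomal RNA, stood at 23394 against 17654 CPM, 1279 against 436 CPM and 439 against 143 CPM.

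Several groups kept the sign of their median within both classes of cells. Glucocorticoid and fasting, gluconeogenesis, pericentral, transporter and amino acid breakdown genes had positive medians, and serum amyloid, immediate early and interferon-stimulated genes negative ones, below 2% and at or above 5% of mitochondrial UMIs. In cells without a macrophage or MHC class II UMI the medians were 0.91 for gluconeogenesis, 0.64 for pericentral genes, 0.81 for transporters, 0.56 for cytochrome P450 genes, 0.63 for amino acid breakdown and -0.64 for immediate early genes. Single genes named above also had ratios in a class over 1.5 times away from that over all cells, among them Egfr, with 2.81 under 2%. The ratios under 2% and at 5% or more were 3.27 and 6.17 for Plin5, 1.81 and 3.595 for Cyp27a1 and 1.14 and 2.095 for Abcc2. They were 0.279 and 0.482 for Socs2, 0.668 and 0.288 for Nr1d1, 0.145 and 0.0912 for Saa2, 0.172 and 0.108 for Klf6 and 5.71 and 1.38 for Igkc, and for the leading genes 227 and 59.8 for Mup11 and 59.05 and 132 for Cyp2c54. Between the classes the list medians changed sign for apolipoproteins, nuclear oxidative phosphorylation genes, mitochondrially encoded genes, transcription factors, the clock, the unfolded protein response, heat shock proteins, epsins and adaptors, and hepatocyte markers.

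**Figure D5:**
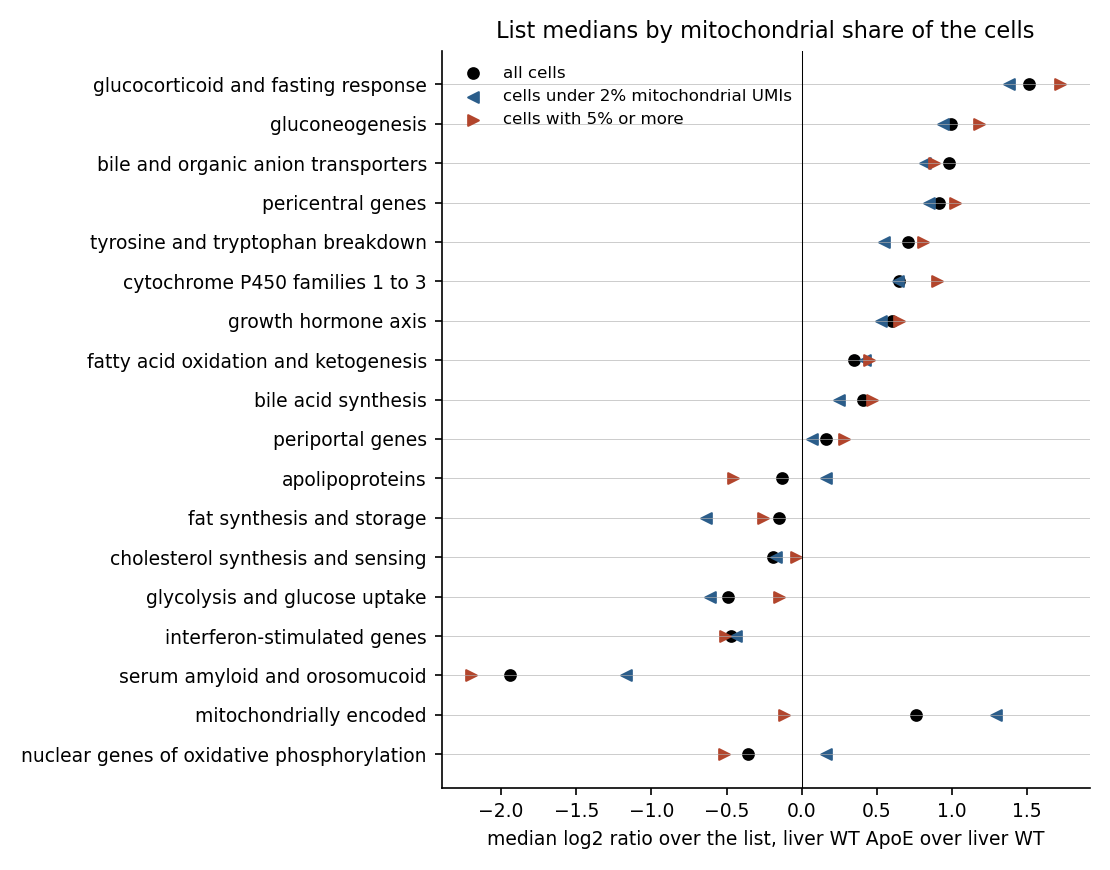
Median log2 ratio, WT ApoE over WT, of 18 gene lists in all cells (black circles), in cells under 2% mitochondrial UMIs (blue triangles, 1173 and 421 cells) and in cells with at least 5% (red triangles, 1178 and 175 cells). The glucocorticoid and fasting list stays between 1.38 and 1.72, while the mitochondrially encoded list runs from -0.12 to 1.29.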

How the data were processed

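Cell Ranger 7.1.0 and mouse build mm10 are named in the submitters' processing notes. The authors deposited raw UMI counts per gene and cell, filtered by steps not given in the sources used here. Among hepatocytes of the 3 liver libraries no cell has under 500 UMIs or over 2499 genes, and mitochondrial UMIs reach 19.993%. Such bounds remove the deepest cells and those richest in mitochondrial RNA. Cell type, subtype and cluster come from the authors' metadata, of which 27 columns per table were not used. No doublet caller was run, and cells of high UMI count may be doublets.

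For each library, the UMIs of its cells were added up per gene and divided by their total over the 17961 shared genes (CPM). The 4233 genes only in the WT table and 346 only in the other hold 0.0280% and 0.00310% of the UMIs. Ratios have exact conditional binomial intervals and levels exact Poisson intervals (95%; the script was tested on simulated data). With 1 library a side no test was possible. Splits by mitochondrial share and by macrophage UMIs were chosen after seeing the data. A gene counts as higher or lower past 1.5-fold among genes with a mean of at least 20 CPM, a rule of size, not a test. List medians cover such genes. Named genes were the 15 highest and lowest by the interval bound nearest 1, up to 3 each way and the 2 most abundant per list, and Apoe, Epn1 and Epn2; others were added from the lists after their values were seen. Some genes that the rule names are not reported here. Members and lists were chosen with earlier results of these data known. Python 3.11.15, pandas 2.3.3, numpy 2.4.6, scipy 1.17.1 and matplotlib 3.10.9 were used.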

Additional observations from a re-analysis of the deposited data

How the results depend on the processing

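Scaling to a median ratio of 1, leaving mitochondrial and ribosomal RNA out of the totals, totals over all genes, equal weight per cell, a minimum of 500 genes, thinning, and leaving out small clusters or the HC1 cells of WT kept the counts within 1.5 times of 949 higher and 966 lower genes. A mean of at least 50 CPM gave 561 and 485, a 2-fold rule 351 and 385, and no level filter but 3 UMIs 3198 and 4381. Cells under 2% mitochondrial UMIs, an alternative added after seeing the data, gave 627 higher genes, of which 532 were among the 949. In cells without macrophage or MHC class II UMIs (also added later) the counts were 1061 and 1009, from only 100 WT cells. Changes in the sign of log2 ratios are listed here for named genes and lists past 1.5-fold over all cells. Ppara turned under 2% mitochondrial UMIs (-0.07). At 5% or more, mt-Co3 (-0.10), Rps2 (0.12), Hbb-bs (1.92) and the mitochondrially encoded list (-0.12) turned. Genes within 1.5-fold also turned, among them Xist (0.54 to -0.45 under 2%) and Fabp1 (-0.26 to 0.18 under 2%). Without the HC1 cells, Hbb-bs (5.74), Hba-a2 (7.17), Hba-a1 (7.49) and the erythroid list (6.45) turned, since those 111 cells hold most haemoglobin UMIs of WT. Without clusters 14, 16 and 18 of WT ApoE, Hbb-bs (-8.03), Hba-a2 (-8.62) and Hba-a1 (-7.46) moved the other way. In cells with 5% or more, the erythroid list gave no finite median. The causes of the other changes were not tested. No paired analysis was possible because each group is 1 library. Depth limits low genes: a gene with 0 UMIs in WT could still be at up to 3 of its 1883270 UMIs over shared genes.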

Other observations

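The table of the WT library lists genes that the table of the ApoE livers does not, so they entered no comparison. Of these, H19, an imprinted transcript of fetal liver, had the most UMIs, 44 in 32 of the 616 cells. Mmp12, a macrophage elastase, had 30 UMIs in 29 cells, Gpnmb, a glycoprotein of lipid-laden macrophages, 20 in 20 cells, and Trem2, a lipid receptor of macrophages, 19 in 18 cells. Cd207, langerin, had 15 UMIs in 15 cells. Their level in WT ApoE was not analysed here.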
